A study of Homo sapiens with 14 samples.

Results

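The enzymes of mitochondrial fatty acid beta-oxidation were followed in HepG2, a human cell line from a liver tumour, after a miR-124 transfection, set against a negative control transfection. The members are 10 genes given by name, chosen by the low log2 ratio already seen for one of them, ACAA2, with every probe set that the platform annotation assigns to one of them, and they hold 20 probe sets among 10 of the 19775 genes measured. There were 14 arrays, 7 for each transfection, with 1 array per transfection at 4, 8, 16, 24, 32, 72 and 120 h. The labels used here give neither a dose of the small RNA nor a sequence for the control, and they state no other treatment and no replicate culture. Values are log2 levels per probe set as deposited, made with RMA, which makes the arrays' distributions alike.

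Beta-oxidation shortens fatty acids by repeated rounds of reactions in the mitochondrial matrix. CPT1A on the outer membrane and CPT2 on the inner membrane carry long-chain acyl groups in as carnitine esters. The acyl-CoA dehydrogenases ACADVL, ACADM and ACADS open each round on very long, medium and short chains. For long chains the trifunctional protein, built of HADHA and HADHB, does the hydration, the second oxidation and the thiolytic cleavage, while for shorter chains ECHS1, HADH and the thiolase ACAA2 do these steps one by one. The pathway is active in liver, where its acetyl-CoA feeds ketone bodies. miR-124 is a small RNA abundant in neurons that lowers messenger RNAs holding a matching site.

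The ratio of miR-124 over control for ACAA2 in these arrays was known when the pathway was picked. All values of that ratio for ACAA2 are therefore a description and have no test. The other 9 genes were taken by name as the rest of the pathway, with results of these arrays known. Their changes come from fits over all 13128 genes above a signal filter, with Benjamini-Hochberg adjusted p under 0.05 as the threshold for a call. All 10 members passed the filter, through the probe set with the highest mean level.

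The promoter windows of 4 members are shown for 2 pairs. ACAA2 and ACADM had the lowest middle ratios of the members, and HADHA and HADHB lie head to head, with HADHA called late and HADHB not. The windows run from 250 bases before to 50 bases after the start of each gene (RefSeq, GRCh38.p14), and all 10 members matched the table. ACAA2 is the window chr18:49813484-49813783 on the minus strand, and ACADM is chr1:75724459-75724758 on the plus strand. Capitals in these mark GGGCGG, a GC box, on either strand, of which ACADM has 4 (a pair of them overlapping) and ACAA2 has 0.
ACAA2: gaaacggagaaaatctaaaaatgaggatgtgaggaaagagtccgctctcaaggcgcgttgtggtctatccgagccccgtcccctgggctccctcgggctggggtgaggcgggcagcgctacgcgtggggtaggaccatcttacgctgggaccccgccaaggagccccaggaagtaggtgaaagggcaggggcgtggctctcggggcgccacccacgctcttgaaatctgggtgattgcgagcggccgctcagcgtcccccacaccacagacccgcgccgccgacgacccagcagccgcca
ACADM: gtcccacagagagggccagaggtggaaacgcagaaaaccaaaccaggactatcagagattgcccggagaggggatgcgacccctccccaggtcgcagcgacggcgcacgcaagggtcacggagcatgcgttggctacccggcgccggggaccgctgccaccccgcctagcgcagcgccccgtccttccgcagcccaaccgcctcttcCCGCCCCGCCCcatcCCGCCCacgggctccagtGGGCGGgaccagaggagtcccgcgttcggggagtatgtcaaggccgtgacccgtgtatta
HADHA is the window chr2:26244583-26244882 on the minus strand, and HADHB is chr2:26244689-26244988 on the plus strand. Their starts are 307 bases apart, and the capitals mark the 194 bases that both windows share, read on opposite strands.
HADHA: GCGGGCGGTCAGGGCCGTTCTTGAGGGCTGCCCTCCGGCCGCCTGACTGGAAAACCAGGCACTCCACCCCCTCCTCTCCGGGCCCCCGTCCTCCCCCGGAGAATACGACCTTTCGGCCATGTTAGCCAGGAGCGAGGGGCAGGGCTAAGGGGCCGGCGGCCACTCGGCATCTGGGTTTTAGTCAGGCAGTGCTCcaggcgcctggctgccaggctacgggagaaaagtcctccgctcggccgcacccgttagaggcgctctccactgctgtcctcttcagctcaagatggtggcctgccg
HADHB: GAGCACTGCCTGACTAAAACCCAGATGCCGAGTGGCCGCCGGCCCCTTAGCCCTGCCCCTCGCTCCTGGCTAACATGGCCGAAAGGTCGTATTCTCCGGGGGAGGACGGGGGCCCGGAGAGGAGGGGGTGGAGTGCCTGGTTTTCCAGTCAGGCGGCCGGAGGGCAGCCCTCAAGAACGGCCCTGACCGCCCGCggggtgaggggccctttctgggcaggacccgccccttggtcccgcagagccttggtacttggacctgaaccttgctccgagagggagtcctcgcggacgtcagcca
GGGCGG was found in the windows of 8 of the 10 members, all but CPT1A and ACAA2, against 48.3% of all 27305 genes. Counted by window, it was in 8 of the 12 windows of members and in 45% of all 35116 windows. AGGTCA, the half-site of nuclear receptors such as PPAR-alpha, was found on either strand in none of the 12 windows of members (ACADVL and HADH have a pair each) and in 13.8% of all windows. Other stretches of these genes were not searched.

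One array differed from the rest in ribosomal RNA: the 18S probe sets averaged 11.05 (log2) with miR-124 at 4 h, against 8.70 in its control partner, and no other array was above 9.20. The excess of the 3′ over the 5′ probe sets of ACTB tracks RNA quality. It ran from 0.35 to 0.56 (log2) in the miR-124 arrays and from 0.10 to 0.35 in the control arrays. It was higher with miR-124 at all 7 times, though nearly equal at 4 h (0.351 against 0.348). At 72 and 120 h the ACTB excess was 0.36 and 0.41 with miR-124, against 0.24 and 0.10 in the control. The same excess of GAPDH was 0.195 with miR-124 at 4 h, against 0.204 in the control. Its ranges were 0.20 to 0.30 with miR-124 and 0.03 to 0.25 in the control. The part of either excess in the results below was not tested. Of 8 hepatocyte markers 7 were measured, all above the filter, and their summed linear level ran from 62992 to 70815 in miR-124 arrays and from 64465 to 77204 in control arrays. Of 8 blood markers 6 were measured (sums of 6233 to 7417 with miR-124 and 6518 to 8368 in the control). PTPRC and CD14 lay below the filter, while LYZ (mean level 12.63), HBB (8.04), CD3D (7.48) and CD79A (6.94) lay above it. Of 10 fibroblast and endothelial markers, COL3A1, CDH5 and LUM lay below the filter, with sums of 1595 to 2599 with miR-124 and 1566 to 1857 in the control. Above it were ACTA2 (mean level 9.30), COL1A1 (8.44), PECAM1 (8.37), COL1A2 (6.74), DCN (6.70), PDGFRB (6.40) and VWF (6.32). In whole cultures, fewer cells with a transcript and less of it per cell cannot be told apart.

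ACAA2, the thiolase that ends each round on shorter chains, was the member with the lowest ratio at each time from 8 h on. In its brightest probe set, 202003_s_at, the miR-124 arrays had log2 levels of 10.47, 9.62, 8.23, 7.69, 7.48, 7.65 and 9.03 at the 7 times, against 10.61, 10.62, 10.47, 10.38, 10.43, 10.57 and 10.50 in the control arrays. The control arrays stayed within 0.24 of each other, while the miR-124 arrays spanned 2.99, lowest at 32 h and partly back at 120 h. In the same order of times, the log2 ratios were −0.14, −1.01, −2.25, −2.69, −2.96, −2.92 and −1.47. This is 2.01-fold lower at 8 h, 7.77-fold lower at 32 h and 2.77-fold lower at 120 h. The log2 ratio at 120 h was 49.7% of the lowest one. Over 16, 24 and 32 h the ratio averaged −2.63 ± 0.36 (SD between times, n = 3 pairs), or 6.19-fold. Counted from the lowest ratio among 13128 genes, the places of ACAA2 over the 7 times were 2652, 8, 2, 6, 5, 15 and 33.

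The other probe sets of ACAA2 showed a much smaller ratio. Probe set 202002_at averaged −0.35 ± 0.09 over 16 to 32 h (SD, n = 3 pairs), with all miR-124 arrays, at 7.13 to 7.39, below all control arrays, at 7.51 to 7.75. Probe set 241114_s_at averaged −0.22 ± 0.09 over the same times and was above control at 4 h, by 0.36. Their mean levels over all arrays were 7.42 and 7.05, above the filter of 6.19. The mean over the 3 probe sets gave −1.07 for the middle times, so the size of the ratio rests on 202003_s_at. Which part of the transcript each probe set reads is not given in the sources used here.

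**Figure D1:**
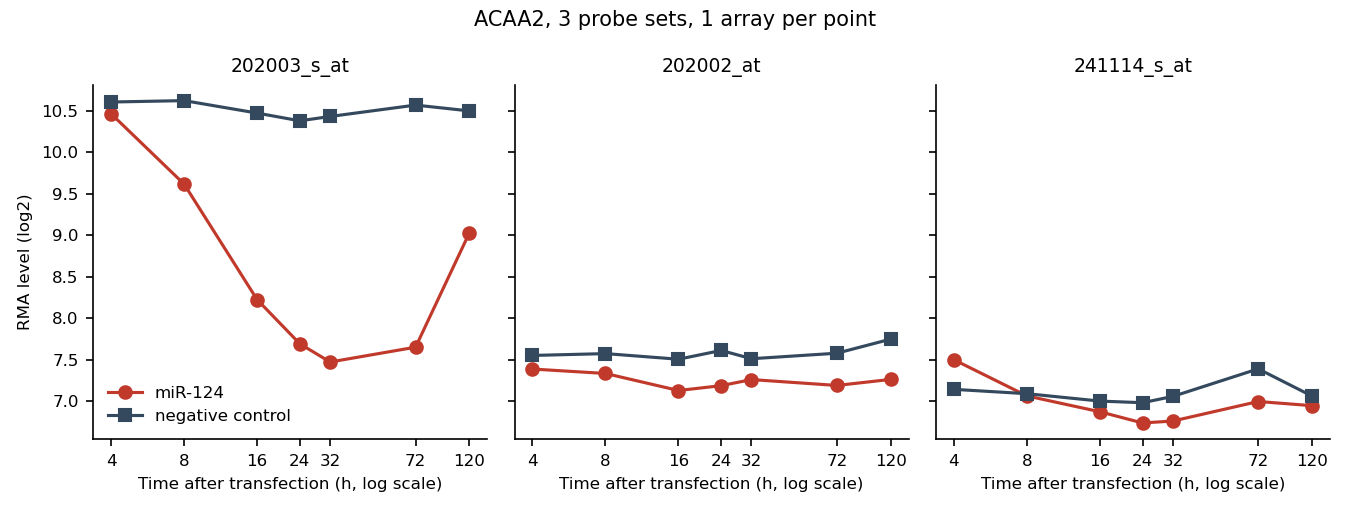
ACAA2 level (log2, vertical) against time after transfection (h, log scale) for its 3 probe sets, with 1 array per point, miR-124 in red circles and negative control in dark squares. Only in 202003_s_at does the miR-124 course go far below control, to 7.48 at 32 h, with a return to 9.03 at 120 h.

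At the import step, CPT1A was called and CPT2 was not. CPT1A, whose step is the rate-limiting one of entry into mitochondria, was lower with miR-124 in the middle window (16, 24 and 32 h) and in the late window (72 and 120 h). Its log2 levels were 9.12, 9.06, 8.24, 8.12, 7.96, 7.70 and 7.76 with miR-124, against 9.06, 9.05, 8.66, 8.63, 8.95, 8.50 and 8.80 in the control. The arrays of 4 and 8 h nearly coincided, and from 16 h on each miR-124 array lay below its control partner. The change was −0.64 ± 0.11 in the middle window (SE, limma adjusted p = 0.0177) and −0.92 ± 0.14 late (limma adjusted p = 0.00255), 1.56-fold and 1.90-fold. Of its other probe sets, 203634_s_at gave −0.77 ± 0.14 late (adjusted p = 0.00592 in the limma fit of all 22865 probe sets) and 210688_s_at −0.34 ± 0.12 (adjusted p = 0.0675), while 210687_at lay below the filter. In the middle window neither 203634_s_at (−0.39 ± 0.11, limma adjusted p = 0.0882) nor 210688_s_at (−0.10 ± 0.10, limma adjusted p = 0.668) was called in that fit. As the mean of its probe sets, CPT1A was not called in the middle window (−0.26, limma adjusted p = 0.117).

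CPT2, which hands the acyl group back to CoA inside the membrane, was not called in any window in its brighter probe set. Its levels ran from 7.89 to 8.45 with miR-124 (median 8.22) and from 8.04 to 8.48 in the control (median 8.15), so the groups overlapped. The late change was −0.09 ± 0.10 (limma adjusted p = 0.592). Its dimmer probe set 204264_at gave −0.37 ± 0.09 late (limma adjusted p = 0.0251 over all probe sets), so the probe sets of CPT2 disagree.

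Of the acyl-CoA dehydrogenases, the medium-chain enzyme ACADM was lower in both windows. Its levels were 10.85, 10.48, 10.27, 9.93, 9.85, 9.73 and 10.29 with miR-124, against 10.80, 10.76, 10.77, 10.82, 10.92, 10.79 and 11.03 in the control. From 8 h on every miR-124 array was below every control array. The change was −0.82 ± 0.12 in the middle window (1.76-fold, limma adjusted p = 0.0103) and −0.90 ± 0.15 late (1.86-fold, limma adjusted p = 0.00403). Like that of ACAA2, its ratio was lowest at 32 h, at −1.07, and nearly as low at 72 h, at −1.06. At 120 h the ratio of ACADM was −0.74.

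ACADVL, the very long-chain enzyme, was called late and not in the middle window, and the difference between the windows was itself not called (−0.41 ± 0.12, limma adjusted p = 0.115). Its ratio lay between −0.18 and 0.02 up to 32 h and was −0.34 at 72 h and −0.58 at 120 h. The late change was −0.46 ± 0.10 (1.38-fold, limma adjusted p = 0.00973), against −0.05 ± 0.08 in the middle window (limma adjusted p = 0.803). ACADS, the short-chain enzyme, had levels from 7.74 to 8.08 with miR-124 (median 7.84) and from 7.71 to 8.13 in the control (median 7.84). Its overall change was −0.01 ± 0.06 (limma adjusted p = 0.970), and its ratio was above 0 at 3 of 7 times.

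Of the subunits of the trifunctional protein, HADHA was called late and HADHB was not. HADHA, its hydratase and dehydrogenase subunit, had levels of 10.52, 10.55, 10.61, 10.60, 10.66, 10.48 and 10.65 with miR-124, against 10.70, 10.58, 10.69, 10.73, 10.72, 10.89 and 11.24 in the control. The miR-124 arrays spanned 0.19, and the control arrays of 72 and 120 h were the highest of the 14. HADHA was lower late, at −0.50 ± 0.09 (1.42-fold, limma adjusted p = 0.00436), and all 3 of its probe sets were called late, at −0.43 to −0.67. Over the control arrays alone HADHA's slope was 0.10 ± 0.03 log2 per doubling of time (limma adjusted p = 0.0702). Its probe set 208629_s_at was called there, at 0.21 ± 0.04 (limma adjusted p = 0.0259 over all probe sets), with control levels of 9.54 to 10.73. HADHB, the thiolase subunit, had levels from 11.17 to 11.36 with miR-124 (median 11.24) and from 11.23 to 11.44 in the control (median 11.25). Its ratio stayed between −0.09 and 0.07, and its late change was −0.03 ± 0.08 (limma adjusted p = 0.824). HADHA and HADHB were not tested against each other.

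ECHS1, the short-chain hydratase, was not called, with a late change of −0.25 ± 0.11 (limma adjusted p = 0.119). Its ratio was −0.43 at 72 h and −0.07 at 120 h. HADH, the dehydrogenase of shorter chains, was lower late. Its levels were 9.99, 9.66, 9.65, 9.35, 9.14, 8.36 and 9.20 with miR-124, against 9.85, 9.80, 9.63, 9.54, 9.42, 9.61 and 9.55 in the control. The 72 h miR-124 array was the lowest by far, with a ratio of −1.25, and at 120 h the ratio was −0.36. The late change was −0.80 ± 0.19 (1.74-fold, limma adjusted p = 0.0162), and its 3 probe sets gave −0.73 to −0.88, all called. In probe set 201035_s_at the late change also differed from the middle one (−0.66 ± 0.14, limma adjusted p = 0.0480 over all probe sets).

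**Figure D2:**
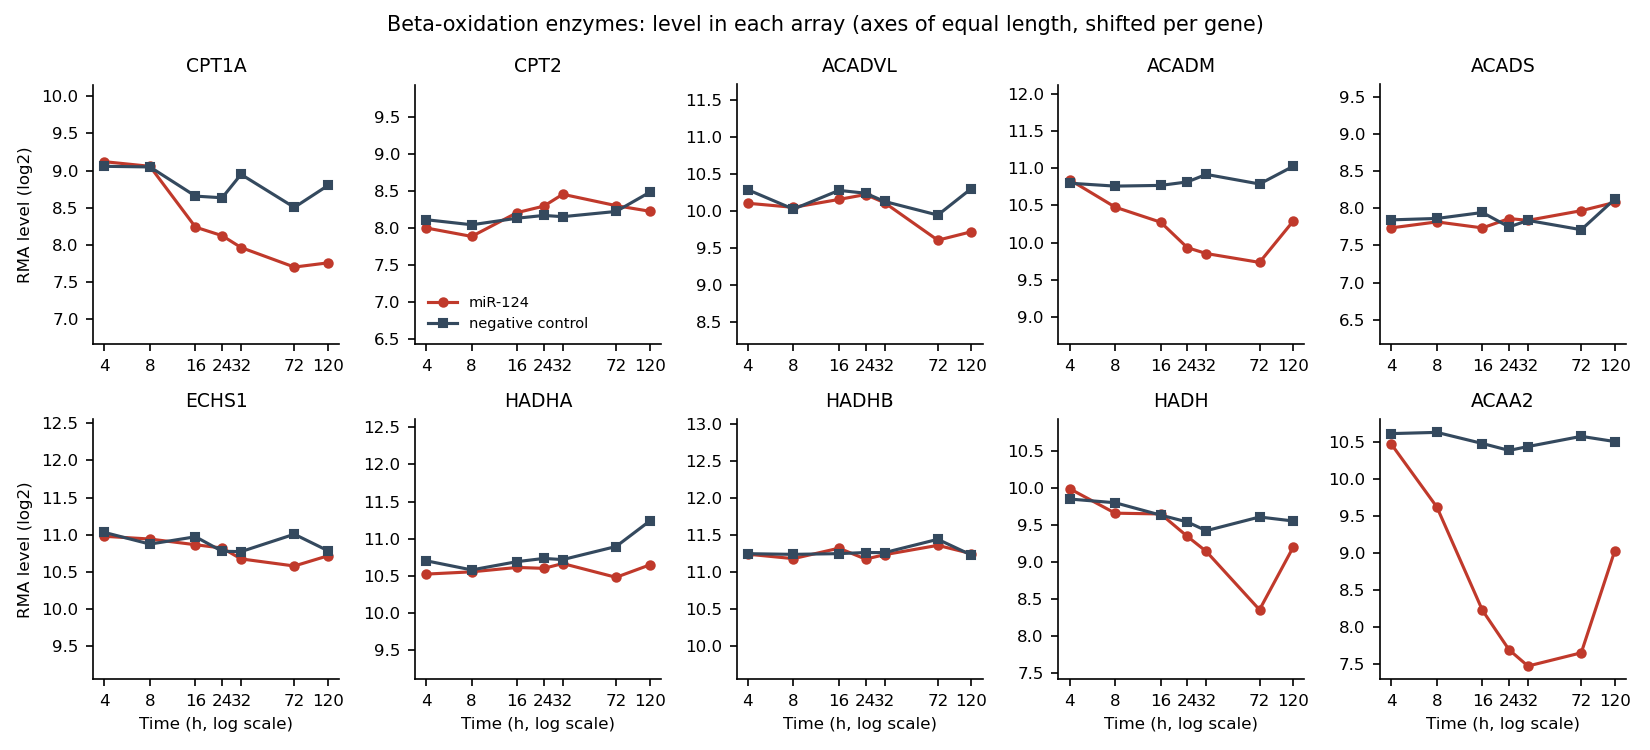
Level (log2, vertical, axes of equal length shifted per gene) of the 10 enzymes against time (h, log scale), with 1 array per point, miR-124 in red circles and negative control in dark squares. ACAA2, ACADM and CPT1A part from control by 16 h and HADH and HADHA at 72 h, where HADHA has its lowest miR-124 array, at 10.48, and the control is at 10.89 and then 11.24, while the HADHB courses overlap.

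Counted over the 9 members other than ACAA2, limma called 2 lower and 0 higher in the middle window, beside 4.36% of all genes lower and 7.83% in either direction. Late it called 5 lower and 0 higher, beside 12.6% of all genes lower and 29.1% in either direction, and 4 were not called. The median change of the 9 was −0.05 in the middle window and −0.46 late, against 0.03 and −0.01 over all genes tested. For 4 and 8 h, the early window, 0 of 9 were called by limma and 0 had an unadjusted p under 0.05, with 0% of all genes called. The difference of the late from the middle change was called for 0 of 9 (1.53% of all genes lower, 3.21% higher and 4.74% either way, and 3 of the 9 at an unadjusted p under 0.05), with HADHA at −0.41 ± 0.11 (limma adjusted p = 0.0832) and HADH at −0.65 ± 0.25 (limma adjusted p = 0.194). Over all 7 times at once limma called 0 of 9 (0.00762% of all genes lower, 4 of the 9 at an unadjusted p under 0.05). ACADM was then at −0.64 ± 0.13 (limma adjusted p = 0.0583, lower in 6 of 7 pairs) and CPT1A at −0.53 ± 0.14 (limma adjusted p = 0.0798, lower in 5 of 7 pairs).

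These calls lean on single times. Without 24 h neither CPT1A (limma adjusted p = 0.124) nor ACADM (limma adjusted p = 0.125) was called in the middle window, nor any other gene. Without 32 h they had limma adjusted p of 0.119 and 0.113, and 0.0914% of all genes were called. In the late window HADH was not called without 72 h (−0.36 ± 0.14, limma adjusted p = 0.107), and ECHS1 was called without 120 h (−0.43 ± 0.11, limma adjusted p = 0.0157). Fitted on the late arrays alone, CPT1A was called (limma adjusted p = 0.0473), and ACADM (0.0514), HADH (0.124), HADHA (0.129) and ACADVL (0.163) were not. Without the 4 h pair, whose miR-124 array stood apart, the middle and late counts were 2 and 5 as before. That pair enters those changes only through the spread, and leaving out 8 h gives the same fit there. The unchanged counts are therefore no check on that array. Over all times CPT1A and ACADM were called without 4 h (limma adjusted p = 0.0375 and 0.0155), and likewise without 8 h (limma adjusted p = 0.0498 and 0.0433). Calls were then more common in general, at 7.4% of all genes without 4 h and 5.17% without 8 h, against 0.00762% with all times. Without 72 h the late window rests on the single pair of 120 h. The ratios there were −0.58 for ACADVL and −0.59 for HADHA, against middle changes of −0.05 and −0.09. Without 120 h it rests on the single pair of 72 h, and the difference of late from middle was −1.10 for HADH.

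**Figure D3:**
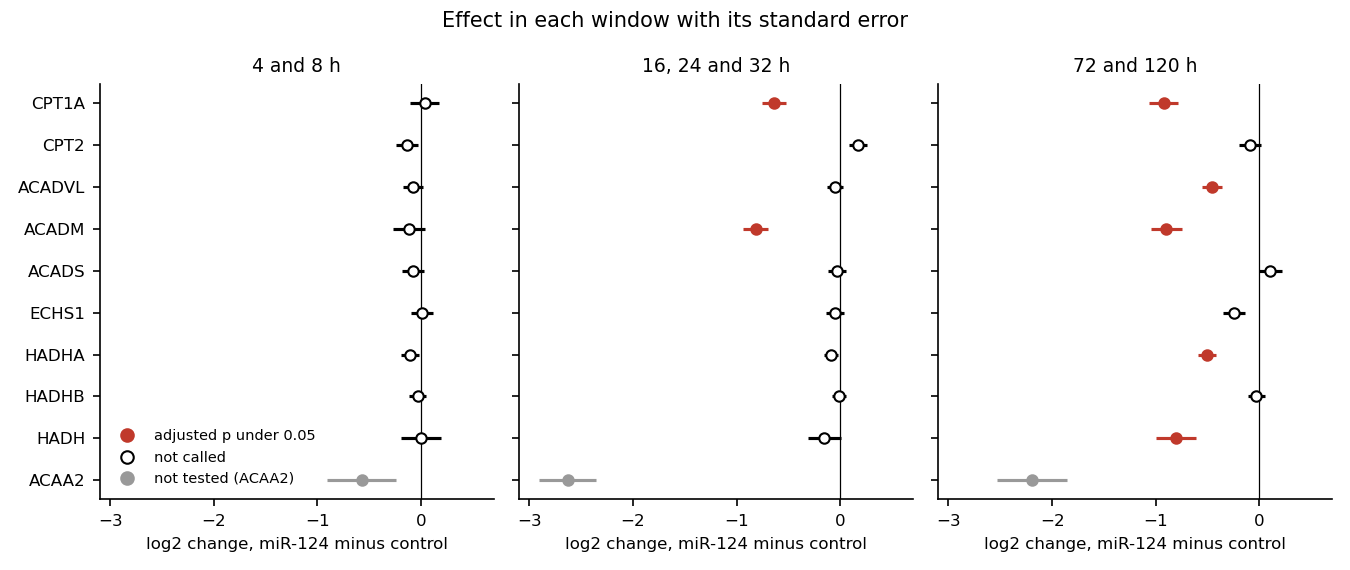
Change with miR-124 (log2, horizontal) of each enzyme in the early, middle and late windows, with bars of 1 standard error; filled red points were called, open points were not, and grey points are ACAA2, which was not tested. CPT1A and ACADM are called in the middle window, and ACADVL, HADHA and HADH join them late.

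In the control arrays none of the 10 members had a called slope with time (8.2% of all genes did, 5.49% downward and 2.71% upward, and 3 of the 10 had an unadjusted p under 0.05). ACAA2 had a slope of −0.02 ± 0.02 per doubling of time (limma adjusted p = 0.593), and its control arrays had an SD of 0.09. The widest control ranges were those of HADHA, 0.66, and CPT1A, 0.55. With the time in hours in place of its logarithm, HADHA (limma adjusted p = 0.00347) and CPT2 (limma adjusted p = 0.0139) were called higher with time, and HADHA also without 4 h (0.15 ± 0.03 per doubling, limma adjusted p = 0.0498). Of all genes, 21.8% were called in either direction with the time in hours, and 3.62% without 4 h.

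Set side by side, the ratios were lowest at different times, each read from single pairs. ACAA2 and ACADM were lowest at 32 h, HADH and ECHS1 at 72 h, and CPT1A, CPT2, ACADVL and HADHA at 120 h. At 72 h ACAA2 and ACADM were nearly as low, at −2.92 and −1.06, as at 32 h, at −2.96 and −1.07. ACADS was lowest at 16 h, at −0.21, and HADHB at 24 h, at −0.09. Between 72 and 120 h the ratio rose by 1.45 for ACAA2, by 0.89 for HADH, by 0.36 for ECHS1, by 0.32 for ACADM and by 0.10 for HADHB. It fell by 0.33 for CPT2, by 0.30 for ACADS, by 0.24 for CPT1A and ACADVL and by 0.18 for HADHA. In the miR-124 arrays themselves ACAA2 rose by 1.38 and HADH by 0.84 between these times, while in the control arrays they moved by −0.07 and −0.05. These single differences have no replicate and no test.

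**Figure D4:**
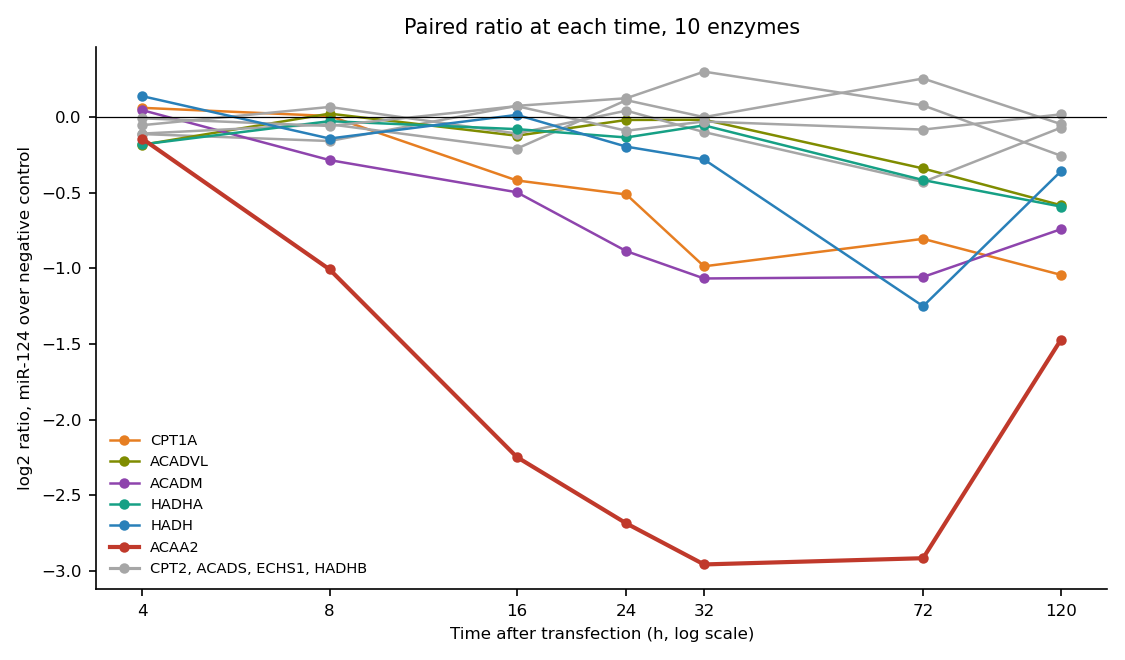
Log2 ratio of miR-124 over control (vertical) at each time (h, log scale) for the 10 enzymes, 1 pair of arrays per point. ACAA2 goes to −2.96 at 32 h, CPT1A to −1.04 at 120 h, ACADM to −1.07 at 32 h and HADH to −1.25 at 72 h, while the grey lines of CPT2, ACADS, ECHS1 and HADHB stay between −0.43 and 0.30.

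The genes whose log2 levels over the 14 arrays were most like those of ACAA2, by Pearson's r among 13127 tested genes, were ATP6V0E1 (0.99), TAB2 (0.99), ANXA7 (0.99), CD164 (0.99) and ROCK1 (0.99). ACADM followed at place 47 with 0.97, CPT1A at place 551 with 0.82 and HADH at place 987 with 0.69. ECHS1 had 0.63, HADHA 0.41, ACADVL 0.37, HADHB 0.03, ACADS −0.09 and CPT2 −0.46. The arrays share their times and transfections, and no test was made.

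Around the 10 enzymes, the calls among genes that activate and import fatty acids were all downward in both windows. Of 11 tested genes of activation and entry, 4 were lower and 0 higher in the middle window, beside 4.36% of all genes lower and 3.47% higher. Late, 5 were lower and 0 higher (median −0.38, against −0.01 for all genes), beside 12.6% of all genes lower and 16.5% higher. The late count was 3 without 4, 8 or 24 h, beside 21.8 to 24.7% of all genes called in either direction. ACSL4 and the acyl-CoA synthetase SLC27A2 (named after its values were seen) were then not called. Their ratios were −0.79 and −0.43 at 72 h, and −0.28 and −0.27 at 120 h. ACSL1, a long-chain acyl-CoA synthetase, was 2.64-fold lower in the middle window (−1.40 ± 0.19, limma adjusted p = 0.00668), with ratios of −1.14, −1.53 and −1.54 at 16, 24 and 32 h and −0.05 at 120 h. SLC25A20, the carnitine-acylcarnitine carrier that works between CPT1A and CPT2, was at −0.76 ± 0.12 in the middle window (limma adjusted p = 0.0129) and −0.93 ± 0.15 late (limma adjusted p = 0.00352). FABP1, the liver fatty acid binding protein, was 3.27-fold lower late (−1.71 ± 0.17, limma adjusted p = 0.000534), with levels of 10.09 and 11.53 with miR-124 at 72 and 120 h, against 12.14 and 12.90 in the control, whose earlier arrays lay at 10.15 to 10.49. ACSL4 was at −0.53 ± 0.17 late (limma adjusted p = 0.0462, 0.328 without 72 h, and 0.0667 to 0.0842 without 4, 8 or 24 h).

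Of 13 tested regulators, 2 were lower in the middle window, beside 4.36% of all genes lower. Late, 2 were lower and 2 higher (median 0.02), shares near those of all genes late, 12.6% lower and 16.5% higher. PPARA, the fatty acid receptor that drives these genes in liver, was at −0.65 ± 0.10 in the middle window (limma adjusted p = 0.0103) and −0.76 ± 0.12 late (limma adjusted p = 0.00321), lower in 7 of 7 pairs. Its DNA-binding partner RXRA was at −0.89 ± 0.12 (limma adjusted p = 0.00792) and −0.97 ± 0.15 (limma adjusted p = 0.00299), lower in 6 of 7. The related receptor PPARD was higher late, at 0.87 ± 0.12 (limma adjusted p = 0.00199), as was MLYCD, which breaks down malonyl-CoA, at 0.75 ± 0.11 (limma adjusted p = 0.00212). Of 8 tested other targets of PPAR-alpha, FABP1 and SLC25A20 were lower in both windows, and VNN1, a pantetheinase, was 5.36-fold higher late (2.42 ± 0.10, limma adjusted p = 3.21e-05). That list's late median was −0.06.

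Among 11 other mitochondrial acyl-CoA enzymes none was called in the middle window (limma, 5 at an unadjusted p under 0.05), beside 7.83% of all genes. Late, 4 were lower and 3 higher (median −0.23), beside 12.6% of all genes lower and 16.5% higher. Without 24 h or without 120 h, 1 was higher, as IVD, of leucine breakdown and likewise named after its values were seen, was then not called either (limma adjusted p = 0.0616 and 0.0640). ETFB, a subunit of the flavoprotein that takes electrons from the dehydrogenases, was at −0.97 ± 0.09 (limma adjusted p = 0.000469) and the isomerase ECI1 at −0.46 ± 0.08 (limma adjusted p = 0.00547). The dehydrogenases of branched-chain breakdown ACAD8 and ACADSB were higher, at 0.76 ± 0.12 (limma adjusted p = 0.00345) and 0.40 ± 0.12 (limma adjusted p = 0.0411). ACADSB kept its call only without 72 h, with limma adjusted p of 0.0629 to 0.0747 without one of the times from 4 to 32 h and 0.330 without 120 h. Of the 3 other thiolases tested, none was called in the middle window (limma, 0 at an unadjusted p under 0.05), and the cytosolic ACAT2 was lower late, at −0.67 ± 0.14 (limma adjusted p = 0.0107, and 0.0820 without 72 h). The mitochondrial ACAT1 was at −0.24 ± 0.10 late (limma adjusted p = 0.103) and the peroxisomal ACAA1 at −0.02 ± 0.13 (limma adjusted p = 0.922).

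Of 10 peroxisomal genes, 1 was lower in the middle window, and 3 were lower and 2 higher late (median −0.03), and 1 was lower late without 72 h. Over all genes, 4.36% were lower in the middle window, and 12.6% were lower and 16.5% higher late. CROT, which makes carnitine esters for export from peroxisomes, and ABCD3, a transporter of their membrane, were higher late at 1.14 ± 0.16 (limma adjusted p = 0.00191) and 0.85 ± 0.10 (limma adjusted p = 0.00104). ACOX2, a branched-chain acyl-CoA oxidase, was at −0.89 ± 0.24 (limma adjusted p = 0.0280, 0.246 without 72 h, and 0.0526 to 0.0554 without 4, 8 or 24 h) and PECR, an enoyl-CoA reductase, at −0.64 ± 0.12 (limma adjusted p = 0.00530). The gene lower in the middle window was catalase, CAT, named after its values were seen, at −0.50 ± 0.10 (limma adjusted p = 0.0271, and 0.0601 without 4 h or 8 h). Its late change was −0.52 ± 0.13 (limma adjusted p = 0.0167, and 0.133 without 72 h). Of 3 genes of ketone bodies tested, 0 were called in the middle window (limma, 2 at an unadjusted p under 0.05), and BDH1 and OXCT1 were higher late, at 0.57 ± 0.08 (limma adjusted p = 0.00217) and 0.67 ± 0.09 (limma adjusted p = 0.00164), with a list median of 0.57, and 1 was lower late without 72 h.

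**Figure D5:**
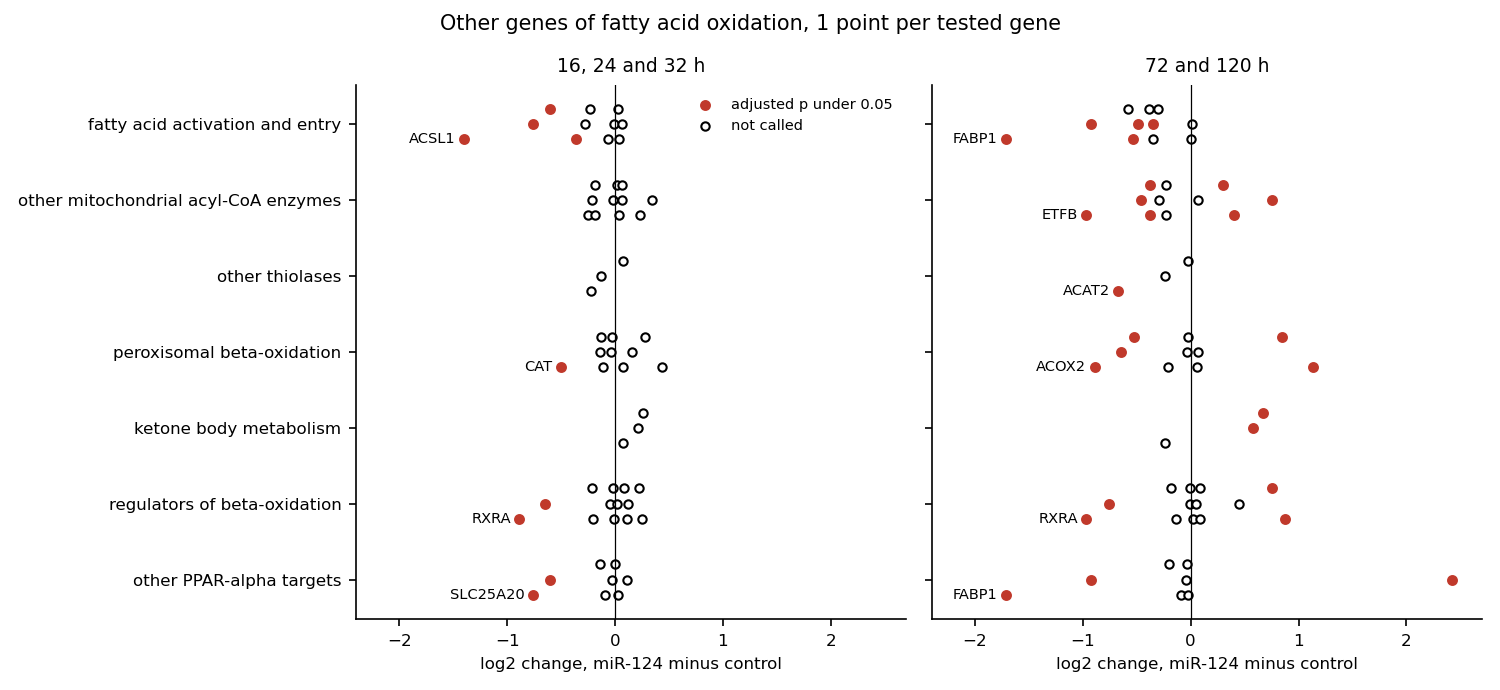
Change with miR-124 (log2, horizontal) in the middle and late windows for 7 lists of genes of fatty acid oxidation, 1 point per tested gene, filled red where called; the lowest gene of a list is named where it was called. In the activation and entry list all called points lie below 0, from FABP1 at −1.71 late. The lists of other mitochondrial acyl-CoA enzymes, peroxisomal genes, regulators and PPAR-alpha targets hold called points on both sides late.

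Other mitochondrial genes were read beside these. Of 14 genes of mitochondrial content, 1 was lower in the middle window, the outer membrane channel VDAC2 at −0.39 ± 0.09 (limma adjusted p = 0.0342), and 2 were lower late, VDAC2 at −0.59 ± 0.11 (limma adjusted p = 0.00478) and the prohibitin PHB1 at −0.28 ± 0.08 (limma adjusted p = 0.0347, and 0.0529 to 0.156 without any one time but 120 h). That list's late median was −0.18. Of 15 genes of the citric acid cycle, 1 was lower and 1 higher in the middle window, and 2 were lower and 3 higher late (median 0.12). SUCLG2 was at −2.61 ± 0.28 in the middle window (limma adjusted p = 0.00527), its paralog SUCLA2 at 0.32 ± 0.07 (limma adjusted p = 0.0323), IDH2 at 1.11 ± 0.16 late (limma adjusted p = 0.00209) and SDHD at −0.72 ± 0.21 late (limma adjusted p = 0.0383, 0.344 without 72 h, and 0.0660 to 0.0696 without 4, 8 or 24 h). Among markers, FGB of 7 hepatocyte markers was lower late (−0.46 ± 0.09, limma adjusted p = 0.00751, not called without 72 h). CD3D of 4 blood markers (1.44 ± 0.25, limma adjusted p = 0.00465) and ACTA2 and PECAM1 of 7 fibroblast and endothelial markers (1.07 ± 0.17 and 0.46 ± 0.11, limma adjusted p = 0.00284 and 0.0189) were higher late, and their part in the other results was not tested. These stand beside 12.6% of all genes lower and 16.5% higher late, and 4.36% lower and 3.47% higher in the middle window. Without 24 h or without 32 h, 0 genes of these lists were called in the middle window by limma, and without 4 h or 8 h the entry list kept 2 of its 4 middle calls, ACSL1 and SLC25A20. VDAC2 and SUCLA2 lost their middle calls without 4 h or 8 h (limma adjusted p = 0.0720 and 0.0661) and without 16 h (limma adjusted p = 0.0502 and 0.0910). On the late arrays alone, 1 gene of the entry list was still called, FABP1, and PPARA, RXRA and the 3 called markers of other cell types were not. Without 72 h PECAM1 was not called (limma adjusted p = 0.147).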

How the data were processed

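Total RNA of HepG2 cells was made into biotinylated cRNA and hybridised, 1 sample per array, per the labels' protocols. The deposited values are log2 levels per probe set, made by the authors with RMA according to the submitters' processing notes. Its version is not given in the sources used here. That the scale is log2 was read from the values (2.93 to 14.37, none missing). Arrays have no depth, and their number limits the precision.

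Each gene took its probe set with the highest mean over 14 arrays among probe sets with 1 symbol, and genes above the median of all probe sets (6.19) were tested, 13128 of 19775. limma 3.58.1 in R 4.3.3 (lmFit, eBayes, two-sided, tested on simulated data) used time as a block with 1 effect overall (6 residual degrees of freedom) or 1 per window (4). The control course was a slope on log2 time (5). Times serve as replicates and nothing says that cultures were separate, so p-values measure only the spread of the effect between these arrays. The labels pair the arrays of a time, and their deviations from the group means correlated at 0.21 to 0.48 in all 7 pairs. Members and lists were chosen with earlier results of these data known. All members were named, then per list up to 4 called genes with the largest changes, and the 5 genes most like ACAA2. The lists share genes: FABP1 and SLC25A20 stand in entry and PPAR-alpha targets, ACAA1 in thiolases and peroxisomes, ACAT1 in thiolases and ketone bodies, EHHADH in peroxisomes and PPAR-alpha targets, and CS in mitochondrial content and the citric acid cycle. Some listed genes were not analysed here. Alternatives were other probe set rules, no filter, median centring, no block, a minimum fold, windows alone and leaving out each time. Figures used matplotlib 3.10.9.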

Additional observations from a re-analysis of the deposited data

Results flagged for a closer look

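Both results here come from the control arrays, with 20 groups of 7 arrays looked at, and chance alone marks about 1 in 20 such groups. CPT2 in the negative control array of 120 h stood at 8.48, against 8.22 in the next highest control array, a gap that was large for the range of the 7 arrays. HADHB in the negative control array of 72 h stood at 11.44, against 11.26 in the next highest, marked by the same kind of gap. Both arrays are single time points of a course, so a change with time and a stray array cannot be told apart.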

How the results depend on the processing

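Directions of called changes of the members were kept under each alternative run. The late count of 5 of 9 members held with the brightest probe sets read from the fit of every probe set (where CPT2 was also called, in its dimmer one), with the mean of probe sets, no filter, median centring and no replicate block, was 4 to 6 without one time, 1 on the late arrays alone and 0 with a 1.5-fold minimum. The middle count of 2 became 1 with the mean of probe sets (CPT1A at −0.26, adjusted p = 0.117), 0 with a 1.5-fold minimum, and 0 to 2 without one time. The overall count of 0 was 1 with no replicate block (ACADM, limma adjusted p = 0.0364), so the paired fit called fewer here, and 0 to 2 without one time. The late minus middle count was 0 to 2 and the early count 0 without one time. The control course called 0 members, 1 with the mean of probe sets, 2 with time in hours, and 0 to 1 without one array. ACAA2's middle ratio of −2.63 was −2.64 with median centring and −1.07 as the mean of its probe sets. Over all genes, the calls in the middle window were 7.83%, 16.5% on its own arrays, 0.0152% with the 1.5-fold minimum and 0 to 16.7% without one time. Late they were 29.1%, 4.19%, 2.28% and 21.8 to 37.3%, and overall 0.00762%, against 2.49% with no replicate block, 1.94% with every probe set and 0 to 7.4% without one time. The late minus middle calls were 4.74%, against 0.16% with the minimum and 0.594 to 18% without one time. The control course's were 8.2%, 21.8% with time in hours, 0 with a 1.1-fold minimum per doubling and 1.74 to 8.5% without one array. Causes of these shifts were not tested.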
